A study of Mus musculus with 8 samples.

Results

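Classical monocytes of the mouse lung were taken as the cells that the authors labelled cMono in their deposited cell table, 671 of 41106 cells in all. The lungs came from 4 mice exposed to cigarette smoke (CS) and 4 mice kept in room air (RA), and each mouse gave 51 to 129 of these monocytes. All 8 mice were C57BL/6 Sftpc-CreERT2-mTmG animals, a reporter strain in which tamoxifen-induced Cre marks alveolar type 2 epithelial cells, so the reporter was not aimed at monocytes. Every animal received tamoxifen at 8 to 10 weeks of age, and 2 weeks later littermates began CS exposure for 6 h per day on 5 days per week, or RA, for 10 months. Perfused right lungs were digested with collagenase and elastase 1 day after the last exposure, and CD45+ and CD45- cells were remixed to 10% and 90% before 10x Genomics 3′ barcoding. Mice are named here by their library labels, with C2, C5, D2 and D5 in the CS group and F1, F3, M1 and M3 in the RA group. A level below is in corrected transcripts per 10,000 transcripts of a cell, averaged over the monocytes of each animal.

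Classical monocytes are made in the bone marrow, leave it through the chemokine receptor Ccr2 and circulate in blood before they enter tissue. In an injured lung they can become macrophages or dendritic cells, and in blood some turn into non-classical monocytes, which patrol the vessel wall and depend on the transcription factor Nr4a1. Bacterial products and tissue damage act on classical monocytes through receptors such as Cd14 and the Toll-like receptors, which release NF-kB from its inhibitor IκBα, the product of Nfkbia. NF-kB then drives cytokine genes such as Tnf and Il1b, chemokine genes such as Cxcl2, and genes of its own inhibitors, among them Nfkbia and Tnfaip3. The free cells of a perfused lung and the blood that stays in its capillaries cannot be told apart in these data.

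Promoter windows of Nfkbia, Cxcl2 and Il6 are shown because each held the strict form of the NF-kB consensus searched here. Of the NF-kB list and chemokine genes tested below, 9 had no window, and of the rest only these 3 held it. Looser forms of the motif were not searched. Each window runs from 250 bases before to 50 bases after the gene start, is taken from RefSeq on build GRCm38.p6 and is written 5′ to 3′ on the strand of the gene. Capitals mark the match to the 10 base consensus, which was searched on either strand with its 1 central base left free, so the capitals of Nfkbia read as its reverse complement.
Nfkbia, 12:55492598-55492897, minus strand: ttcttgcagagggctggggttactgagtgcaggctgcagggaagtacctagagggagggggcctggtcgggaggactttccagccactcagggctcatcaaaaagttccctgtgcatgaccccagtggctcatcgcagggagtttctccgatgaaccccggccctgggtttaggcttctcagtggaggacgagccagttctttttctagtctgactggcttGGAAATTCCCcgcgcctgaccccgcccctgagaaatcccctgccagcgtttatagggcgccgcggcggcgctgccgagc
Cxcl2, 5:90903649-90903948, plus strand: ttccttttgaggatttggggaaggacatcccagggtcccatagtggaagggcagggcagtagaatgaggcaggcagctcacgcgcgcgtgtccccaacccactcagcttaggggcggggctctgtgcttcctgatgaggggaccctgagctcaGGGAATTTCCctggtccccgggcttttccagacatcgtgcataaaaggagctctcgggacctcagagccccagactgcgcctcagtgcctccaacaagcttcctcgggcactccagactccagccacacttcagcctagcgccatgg
Il6, 5:30012864-30013163, plus strand: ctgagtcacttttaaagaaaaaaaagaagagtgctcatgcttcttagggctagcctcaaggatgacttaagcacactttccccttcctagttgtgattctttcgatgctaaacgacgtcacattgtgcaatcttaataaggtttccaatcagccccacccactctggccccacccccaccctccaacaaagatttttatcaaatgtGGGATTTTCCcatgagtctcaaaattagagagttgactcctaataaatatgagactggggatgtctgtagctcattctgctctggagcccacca
The match begins 29 bases upstream of the start of Nfkbia, 97 bases upstream of that of Cxcl2 and 44 bases upstream of that of Il6. The motif was found in 0.411% of all 32851 promoter windows of this length. Of the 21 NF-kB list genes tested here that had a window, Nfkbia and Il6 held it, and Cxcl2 held it among 5 chemokine genes with a window. A match is a run of letters and says nothing of binding, and a window without it says only that these letters are absent from it.

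The label was checked against its defining markers. Ccr2 had its highest mean level of all 32 labelled cell types in cMono cells, at 7.98 against 3.32 in type 2 conventional dendritic cells, the next type. F13a1, the coagulation factor XIII A chain, was at 9.59 against 5.40 in interstitial macrophages. Ly6c2, the surface antigen that defines the mouse subset, was at 7.99 against 5.0 in the cells labelled NK_T_cytotoxic. Transcripts of Ccr2 were found in 91.2% of the monocytes and in 0.643% of B cells, which should lack it, at median depths of 7195 and 4055 UMIs per cell. Nr4a1 was lower in cMono cells than in cells labelled ncMono, at 3.07 against 14.6, and C1qa, a macrophage marker, was at 0.0662 against 53.7 in interstitial macrophages. Only 14 of the 671 cells lacked a transcript of all 3 defining markers.

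Some features of the libraries bear on the results. RA mouse F1 stood apart from the other 7 mice, with 2 non-classical monocytes against 32 to 73, 6 cells labelled mast cells against 51 to 264, and 373 neutrophils against 112 to 193. In its classical monocytes Chil3 was at 237 against 5.74 to 30.6 and Vcan at 12.9 against 1.15 to 4.08, and the 10 neutrophil markers summed to 15.9 against 2.73 to 4.6. Sex-linked transcripts went against the labelled sex in 4 of 4 CS libraries, where Xist was found in mice labelled male and Ddx3y in mice labelled female, and matched it in 4 of 4 RA libraries. No barcode occurred in classical monocytes of more than 1 library, but cells with other labels were not searched for these barcodes. Over all cell types, 190 of 39884 barcodes occurred in more than 1 library, a count over many more cells. Median depth ranged from 6090 to 10008 UMIs per monocyte, with a mean of 6905 ± 963 (SD, n = 4) in CS and 7994 ± 1399 (SD, n = 4) in RA mice (exact two-sided permutation test, p = 0.286). Stated filters had removed cells above 5% mitochondrial transcripts, and the highest deposited value in these monocytes was 6.85%.

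The number of classical monocytes per mouse was 83, 58, 129 and 116 in CS mice C2, C5, D2 and D5, and 85, 95, 54 and 51 in RA mice F1, F3, M1 and M3. As a share of immune cells they made up 4.56% in C5 (95% Wilson interval 3.54 to 5.85), the lowest, and 10.5% in F1 (8.61 to 12.9), the highest. The groups overlapped. The mean share was 7.49% ± 2.11 (SD, n = 4) under CS and 7.46% ± 2.62 (SD, n = 4) under RA, a difference of 0.0337 percentage points that did not pass the exact two-sided permutation test (p = 0.971; smallest p possible 0.0286). CD45+ and CD45- cells had been remixed, so the number of monocytes in a lung cannot be read from these shares. Immune cells ran from 806 of 6371 cells in F1 to 953 of 2553 in M3, above the stated 10%, and the intervals cover counting error only.

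Non-classical monocytes gave a balance within each lung that does not depend on the remixing. They made up 46.1%, 51.3%, 27.9% and 38.6% of monocytes in C2, C5, D2 and D5, and 2.30%, 25.2%, 43.8% and 43.3% in F1, F3, M1 and M3. The lowest value was that of F1 and the other RA mice lay within or just under the CS range. The mean was 41.0% ± 10.1 under CS against 28.6% ± 19.6 under RA, with SDs over 4 mice a group (p = 0.314 in the exact permutation test). Without F1 the difference of the means went from 12.3 to 3.55 percentage points.

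**Figure D1:**
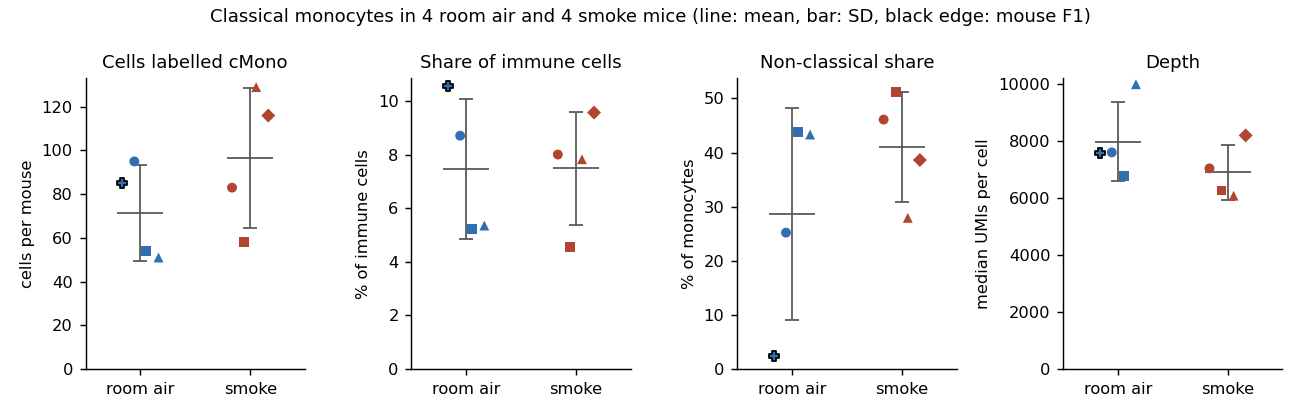
Each point is 1 mouse, with room air in blue and smoke in red, the line and bar are the group mean and SD, and the black edge marks F1. From left, the y axes give the number of cells labelled cMono, their share of immune cells in percent, the share of non-classical cells among monocytes in percent and the median UMIs per classical monocyte; the groups overlap in all 4 panels, and F1 lies lowest in the third at 2.30%.

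Gene by gene, no gene passed the threshold between CS and RA mice. Limma on the 6998 genes found in at least 10% of the monocytes of either group called 0 genes at an adjusted p under 0.05 (0%), and the smallest adjusted p was 0.0876. At an unadjusted p under 0.05, 263 genes (3.76% of those tested) were lower in CS and 449 (6.42%) were higher. When each mouse was centred on its median the same counts were 406 lower and 298 higher, and with quantile normalization 362 lower and 339 higher. Levels of all 4 CS mice lay below those of all 4 RA mice for 166 genes (2.37%) and above them for 262 genes (3.74%). The median log2 difference over all genes tested, taken as CS minus RA on log2(level + 1), was 0.02. A rank test over single cells with Bonferroni correction, the kind the study used, called 177 genes, 114 lower and 63 higher, but it counts the cells of 1 mouse as replicates.

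Of the 10 genes with the smallest p on the lower side, 4 were on the NF-kB list (Il1b, Tnf, Nfkbia and Nfkbiz), which held 27 of the 6998 genes tested. Il1b, the gene of the cytokine interleukin 1β (2:129364570-129371139, minus strand, GRCm38), was at 4.83, 7.81, 6.34 and 6.82 in C2, C5, D2 and D5, and at 26.1, 12.1, 14.0 and 14.3 in F1, F3, M1 and M3. The highest CS value lay below the lowest RA value, and F1 was well above the rest. Its log2 difference was -1.20 (SE 0.21, adjusted p = 0.0876), and without F1 it was -0.97 with an adjusted p of 0.0315. Tnf, the gene of tumor necrosis factor (17:35199381-35202007, minus strand), was at 0.568, 0.907, 1.87 and 1.38 in the CS mice and 4.32, 4.54, 2.41 and 3.60 in the RA mice, in the same order of mice. Here F1 was within the range of the other RA mice. The log2 difference was -1.13 (SE 0.19, adjusted p = 0.0876).

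Nfkbia, the gene of the NF-kB inhibitor whose promoter is printed above, was at 4.87, 9.92, 8.66 and 7.75 in the CS mice and 24.1, 20.5, 12.3 and 16.1 in the RA mice. Nfkbiz, which encodes the nuclear inhibitor-like cofactor IκBζ, was at 2.24, 4.00, 2.91 and 2.80 against 6.19, 6.65, 5.18 and 5.06. Both groups were apart for both genes, with log2 differences of -1.12 (SE 0.21, adjusted p = 0.118) and -0.77 (SE 0.14, adjusted p = 0.103). Ccrl2, an atypical receptor that binds chemerin, was at 0.267 to 1.33 in CS and 1.8 to 5.11 in RA mice. The remaining genes among the 10 with the smallest p on this side were the small GTPase Arl5c, the lysozyme gene Lyz2, the Golgi kinase Fam20c, the Cdc42 effector Cdc42ep2 and the predicted gene Gm6210. Lyz2, whose product splits bacterial cell walls, was at 181, 159, 186 and 181 in CS and 219, 221, 213 and 248 in RA mice, a log2 difference of -0.35 (SE 0.06, adjusted p = 0.0876) that turned to 0.08 under quantile normalization. Arl5c was at 1.17 to 1.88 against 2.93 to 4.89 (log2 difference -0.84, SE 0.14).

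On the higher side the 10 genes with the smallest p shared no fixed list, and all were at low levels. Tob2, an anti-proliferative regulator of mRNA decay, was at 3.24, 4.19, 2.83 and 3.04 in the CS mice and 1.84, 1.58, 1.99 and 1.72 in the RA mice. Mxi1, a partner of Max that opposes Myc, was at 2.48, 2.01, 2.44 and 2.23 against 0.737, 1.07, 0.980 and 1.8. The groups did not overlap for either gene, with log2 differences of 0.63 (SE 0.12, adjusted p = 0.103) and 0.64 (SE 0.14, adjusted p = 0.170). Ddi2, a protease that activates the transcription factor Nfe2l1, was at 1.81 to 2.10 against 0.793 to 1.41, and the DNA-binding factor Rfx7 at 0.870 to 1.01 against 0.369 to 0.557. Stpg4 had the smallest p of these genes, at 0.240 to 0.296 against 0.0483 to 0.0948 (adjusted p = 0.0876). It was found in 10.6% of all monocytes, close to the 10% filter. A gene can pass that filter through the group where it is high, so its rank is not separate support. Sort1, Lhfpl2, Cherp, Gm16201 and Rpl35a-ps5 made up the rest, with log2 differences from 0.21 for Rpl35a-ps5 to 0.43 for Lhfpl2. Rpl35a-ps5 is a ribosomal pseudogene whose reads can belong to its parent gene. It was found in 8.05% of all monocytes, so it did not meet the 10% filter in both groups, and its mean level was 0.194 in CS against 0.030 in RA mice.

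**Figure D2:**
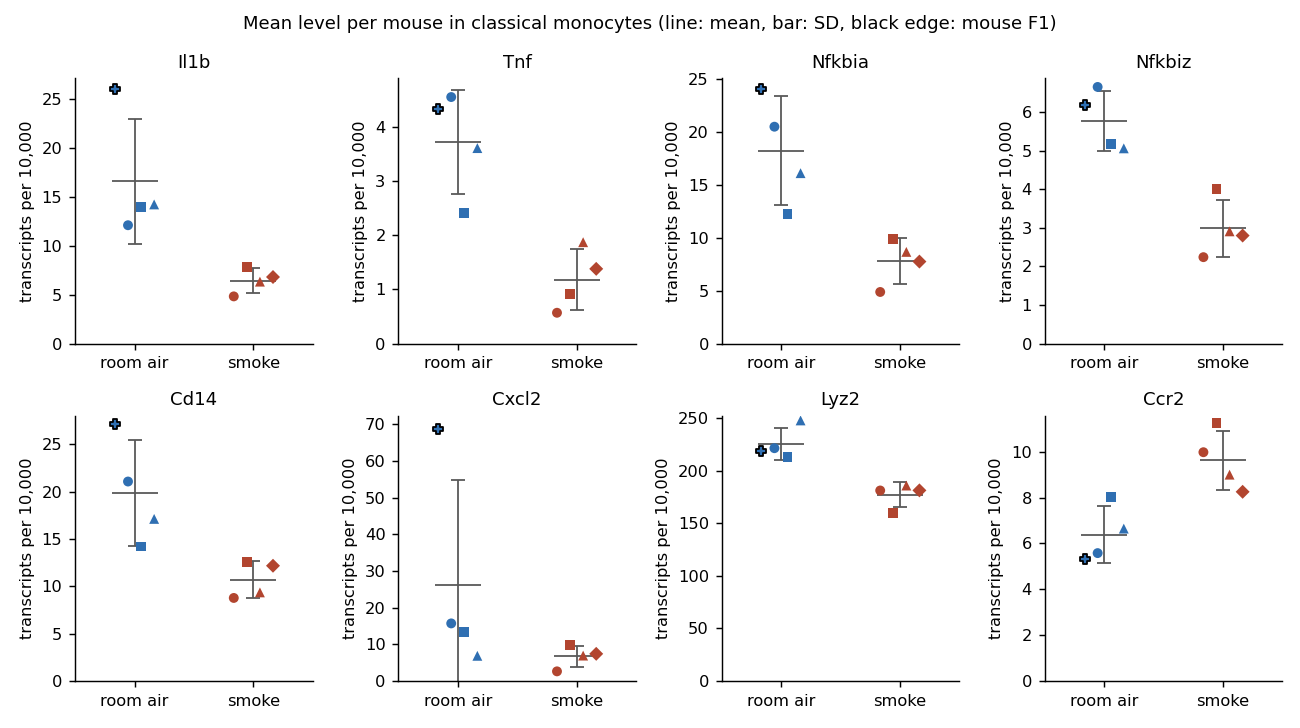
Mean level per mouse of 8 genes in classical monocytes, in transcripts per 10,000 on a linear y axis from 0, for 4 room air (blue) and 4 smoke (red) mice; lines and bars are the mean and SD of a group, and the black edge marks F1. All smoke mice lie below all room air mice for Il1b, Tnf, Nfkbia, Nfkbiz, Cd14 and Lyz2 and above them for Ccr2, while Cxcl2 overlaps and its room air mean is drawn up by F1 at 68.7.

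Of the 3 defining markers, Ccr2 was apart between the groups and Ly6c2 and F13a1 overlapped. Its level was 9.99, 11.3, 9.01 and 8.26 in C2, C5, D2 and D5 and 5.31, 5.58, 8.02 and 6.65 in F1, F3, M1 and M3, with a log2 difference of 0.53 (SE 0.14, unadjusted p = 0.00231, adjusted p = 0.302). Ly6c2 was at 6.65 to 9.78 in CS and 4.57 to 10.9 in RA mice, and F13a1 at 7.31 to 10.1 against 7.19 to 13.8. These ranges overlapped, and the log2 differences were 0.33 (SE 0.21) and -0.08 (SE 0.18), the latter changing sign without C5 or without F1. With 1 mouse left out, the value for Ly6c2 ran from 0.19 (without M3) to 0.56 (without F3). Of the 12 genes on the classical marker list, Lyz2 was lower and Ccr2 higher at an unadjusted p under 0.05, beside 3.76% lower and 6.42% higher of all genes tested, and no other member was.

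Pattern receptors, inflammasome genes and NF-kB targets formed the list with the most members at a small p. The list was chosen with earlier results of these data known, so its counts are descriptions and not separate support. Of its 28 measured genes 27 were tested, 0 were called, and 17 were lower and 0 higher in CS at an unadjusted p under 0.05, against 3.76% of all genes tested for the lower direction. For 12 of the 27 all CS mice lay below all RA mice, against 2.37% of all genes tested. The median log2 difference of the list was -0.47, and 25 of its 27 members were below 0. Without F1 the median was -0.31 and 16 members were lower at an unadjusted p under 0.05, against 4.14% of the 7055 genes then tested. The levels of the 27 genes summed to 54.0, 89.3, 69.6 and 75.2 in C2, C5, D2 and D5, and to 190, 124, 92.5 and 107 in F1, F3, M1 and M3, so the lowest RA mouse, M1, was close above the highest CS mouse, C5.

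The sensors of the list stand first in the pathway. Cd14, the co-receptor for lipopolysaccharide, was at 8.77, 12.6, 9.35 and 12.2 in the CS mice and 27.1, 21.1, 14.2 and 17.1 in the RA mice (log2 difference -0.81, SE 0.18, adjusted p = 0.188). Its partner Tlr4 was at 0.323 to 0.653 against 0.292 to 0.906, with a log2 difference of 0.01 (SE 0.12), and the groups overlapped. Tlr2 overlapped between the groups, with a log2 difference of -0.39 that was -0.18 without F1. Clec4e, the Mincle receptor for mycobacterial and damage-derived lipids, was at 1.03 to 2.51 against 2.67 to 7.84, and the log2 difference went from -0.73 to -0.43 without F1.

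The inflammasome genes given here, members of the same list, were split. Casp4, the caspase that senses cytosolic lipopolysaccharide, was at 0.993, 1.46, 1.03 and 1.19 in the CS mice and 2.47, 2.30, 1.51 and 2.23 in the RA mice (log2 difference -0.52, SE 0.12, adjusted p = 0.227). Nlrp3, the sensor of the best known inflammasome, was at 2.19 to 3.59 against 2.97 to 7.42 and overlapped, with a log2 difference of -0.50 that was -0.28 without F1. Casp1, which cuts pro-interleukin 1β, and Pycard, its adaptor, had log2 differences of -0.05 and 0.07 (-0.13 and 0.18 without F1) and did not pass an unadjusted p of 0.05.

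Some targets that feed back on NF-kB or mark its activity are given here as members picked from the list, with no count of their own. Tnfaip3, the A20 deubiquitinase, was at 1.23, 1.71, 1.36 and 1.29 in the CS mice and 4.00, 3.25, 2.76 and 1.51 in the RA mice, and M3 lay inside the CS range. Sod2, the mitochondrial superoxide dismutase that NF-kB induces, was at 0.912 to 1.82 against 2.20 to 6.57 (log2 difference -0.89, SE 0.24). Ptgs2, the inducible cyclooxygenase, was at 0.269 to 1.06 against 1.17 to 5.19, and its log2 difference of -0.78 was -0.43 without F1. Il6, whose promoter carries the motif shown above, was low in both groups at 0.166 to 0.339 against 0.458 to 0.567, with no overlap (log2 difference -0.27, SE 0.07, adjusted p = 0.288). Ier3, an immediate target of the same pathway, overlapped at 7.64 to 19.9 against 6.78 to 26.5 (log2 difference -0.13, SE 0.33), and its sign turned without F1 (0.20).

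The share of monocytes with a transcript was compared at equal depth. Each cell was thinned to 2000 UMIs, which left out 36 shallower cells. At that depth Tnf was found in 11.8% ± 4.0 of monocytes under CS and 26.2% ± 7.0 under RA (SD over 4 mice). Il1b was found in 41.6% ± 6.0 and 57.3% ± 8.7, Nfkbia in 52.2% ± 10.1 and 73.3% ± 10.0, and Cd14 in 74.5% ± 1.9 and 87.4% ± 7.6. For each of these 4 genes the groups did not overlap. That gives the smallest two-sided p of the exact permutation test with 8 mice, 0.0286, and 0.0857 after adjustment over the 12 genes examined. Mean levels of these 4 genes were already apart in the same cells, so their shares are not separate support. None of the 12 genes passed at an adjusted p under 0.05, and the groups overlapped for each of the other 8. Ccr2, whose mean levels were apart, was found in 73.5% ± 3.9 under CS and 68.8% ± 8.4 under RA at equal depth (exact permutation p = 0.343), and Cxcl2 in 23.03% ± 10.3 and 42.95% ± 21.9 (exact permutation p = 0.114). In B cells, thinned alike, Tnf was found in 2.62%, Il1b in 1.94% and Cd14 in 0.775%, whereas Nfkbia, which most cells use, was found in 38.1%. At deposited depth the shares for Tnf were 19.3% to 27.6% in CS and 37.0% to 61.2% in RA mice.

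All 8 chemokine genes that could be tested had log2 differences below 0, where 2900 of all 6998 genes tested did. At an unadjusted p under 0.05, 4 of them, Ccl3, Ccl4, Ccl9 and Cxcl2, were lower in CS and 0 higher. Of all genes tested 3.76% were lower. Cxcl10 met the 10% filter only through the RA group, where its mean was higher, so its sign is not separate support. Without F1, Cxcl10 did not meet the filter, and 3 chemokine genes were lower at an unadjusted p under 0.05, beside 4.14% of all genes then tested. The list median went from -0.45 to -0.32. Ccl3, an inflammatory chemokine, was at 0.438, 1.17, 1.18 and 0.811 in the CS mice and 9.79, 1.37, 1.76 and 3.75 in the RA mice. The groups did not overlap, but F3 lay close above the CS mice and F1 far above (log2 difference -1.19, SE 0.36, adjusted p = 0.325; -0.75 without F1). Cxcl2, which calls neutrophils through Cxcr2, was at 2.61, 9.77, 6.91 and 7.39 against 68.7, 15.7, 13.2 and 6.84. M3 lay within the CS range, and the log2 difference of -1.41 went to -0.79 without F1. Ccl6 and Ccl9, which monocytes make at rest, were at 9.2 to 12 against 10.3 to 14.8 and at 4.08 to 5.88 against 5.59 to 8.80. Ccl2, the ligand of Ccr2, was at 0.528 to 1.69 against 0.975 to 3.35 (log2 difference -0.43, SE 0.23; -0.18 without F1).

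**Figure D3:**
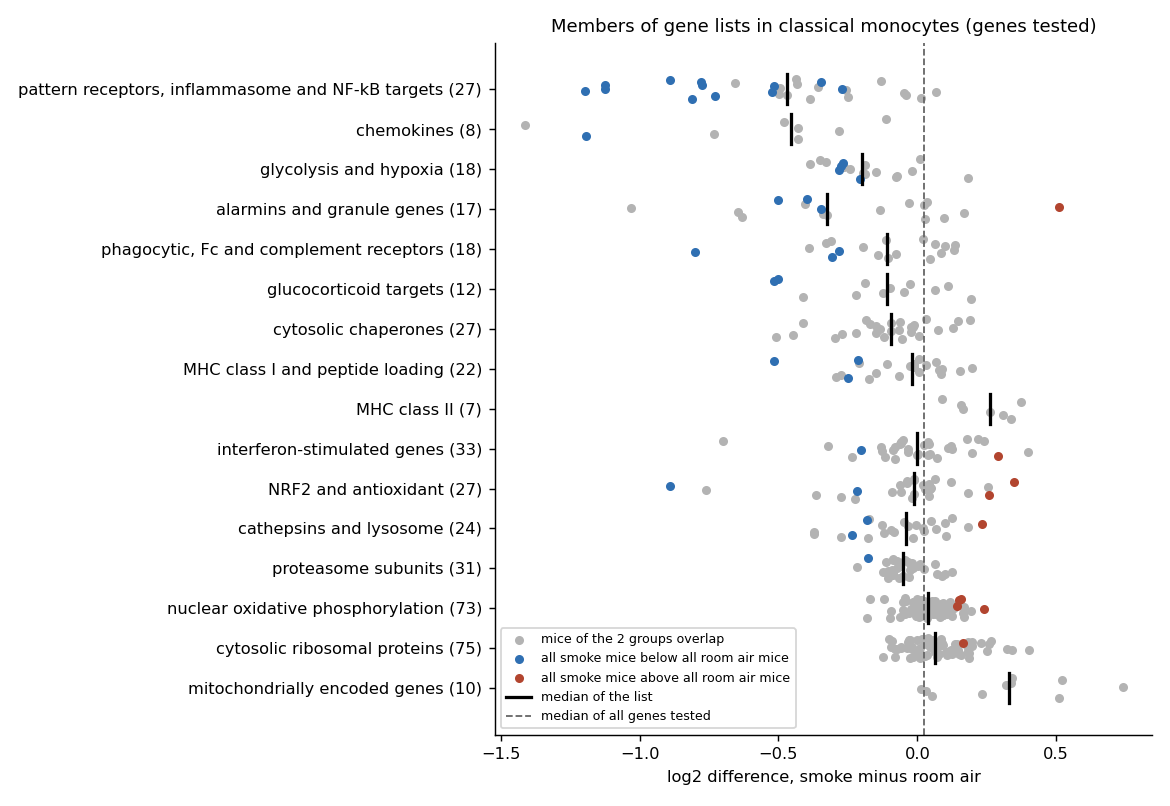
Each point is a gene tested in classical monocytes, placed by its log2 difference (smoke minus room air, x axis) in 16 gene lists (rows, number of tested members in brackets); blue and red points are genes whose smoke mice all lie below or all above the room air mice. Black ticks are list medians, which run from -0.47 for the NF-kB list to 0.33 for mitochondrially encoded genes, and the dashed line is the median of all genes tested, 0.02.

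Outside the NF-kB list, other parts of the antimicrobial equipment held members with the groups apart. Of 18 tested phagocytic, Fc and complement receptors, 5 were lower and 0 higher at an unadjusted p under 0.05 (list median -0.11), beside 3.76% of all genes tested that were lower. Without F1, 3 were lower, beside 4.14% of all genes then tested. C5ar1, the receptor for the complement fragment C5a, was at 0.25, 0.142, 0.651 and 0.792 in the CS mice and 3.94, 1.03, 0.958 and 0.971 in the RA mice, and its log2 difference of -0.80 was -0.47 without F1. Fcgr3, an activating receptor for IgG, was at 2.84 to 3.61 against 4.01 to 4.51 (log2 difference -0.31, SE 0.10, adjusted p = 0.374), while its signalling chain Fcer1g was at 23.1 to 25.9 against 23.8 to 29.3. Of 17 tested alarmin and granule genes, 4 were lower (S100a10, Lyz2, Anxa1 and Anxa2) and 1 higher, beside 3.76% and 6.42% of all genes tested. The list median of -0.33 was -0.0056 without F1. The higher gene, Wfdc17, a whey acidic protein that dampens inflammation in activated macrophages, was at 9.64, 8.22, 7.89 and 8.81 in the CS mice and 4.61, 6.72, 5.31 and 6.62 in the RA mice (log2 difference 0.51, SE 0.13, adjusted p = 0.288). Anxa1, a phospholipid-binding protein that glucocorticoids induce, was at 2.21 to 3.06 against 3.72 to 4.39 (log2 difference -0.50, SE 0.12).

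Glycolysis and hypoxia genes were a further list on the lower side. Of 18 tested, 8 were lower (beside 3.76% of all genes tested) and 0 higher at an unadjusted p under 0.05. The groups did not overlap for 4 of them, Slc2a1, Aldoa, Pgk1 and Pkm, beside 2.37% of all genes tested. The steps were small. Pgk1, a kinase of the pay-off phase, was at 1.81, 1.91, 1.64 and 1.36 in the CS mice and 2.48, 2.09, 2.27 and 2.08 in the RA mice (log2 difference -0.27, SE 0.10), and the list median was -0.20. Hif1a, the oxygen-regulated factor that drives these genes, was at 0.309 to 0.681 against 0.636 to 1.44, with a log2 difference of -0.35 that was -0.23 without F1. The count of 8 was 3 without C5, 4 without C2, 5 with lane as a block and 4 without the monocytes that held markers on the lists of other cells. The count over all genes for the last of these fits is given below with the markers of other cells. No share of all genes is given for the fits without C5, without C2 or with lane as a block. For those fits a loss in the list was not told apart from a loss over all genes.

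Of 20 tested transcription factor and growth factor receptor genes, Cebpb and Zeb2 were lower and Bach1 higher at an unadjusted p under 0.05, beside 3.76% lower and 6.42% higher of all genes tested. Cebpb, a C/EBP factor that monocyte survival and the acute phase response need, was at 11.5, 18.5, 19.8 and 18.3 in the CS mice and 22.5, 23.2, 27.2 and 28.0 in the RA mice (log2 difference -0.56, SE 0.15, adjusted p = 0.325). Zeb2, a regulator of myeloid identity, was at 21.6 to 34.4 against 34.7 to 55.0. Spi1, which encodes the master regulator PU.1, was apart by a small step, at 6.65 to 7.57 against 7.58 to 8.86 (log2 difference -0.19, SE 0.10). Csf1r, the receptor for the growth factor of the lineage, overlapped at 4.62 to 5.53 against 4.73 to 6.29. Itgb2 and Itgb1, integrin beta chains that hold monocytes to endothelium and matrix, were at 3.16 to 4.15 against 4.32 to 4.73 and at 1.18 to 1.57 against 1.83 to 2.06. They are on the list of 15 tested chemokine receptor and adhesion genes, where 10 log2 differences were above 0 and 5 below. At an unadjusted p under 0.05, 3 of the 15 were lower and 2 higher, beside 3.76% and 6.42% of all genes tested.

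MHC class II genes, which present antigen to helper T cells, overlapped between the groups. All 7 tested MHC class II genes had log2 differences above 0, but they varied more between mice of a group than between groups, with H2-Ab1 at 3.38, 3.75, 9.63 and 7.27 in the CS mice and 1.27, 5.62, 8.55 and 4.45 in the RA mice. None had an unadjusted p under 0.05, and the list median of 0.26 was -0.08 without F1, the lowest mouse, as H2-Ab1 went from 0.31 to -0.10. Of 22 tested MHC class I and peptide loading genes 13 were below 0 and 9 above it, and 4 were lower (beside 3.76% of all genes tested) and 0 higher at an unadjusted p under 0.05. For 3 of the 22 all CS mice lay below all RA mice, beside 2.37% of all genes tested. H2-D1 was at 15.6 to 17.95 against 18.04 to 22.9. Of 33 tested interferon-stimulated genes 2 were lower and 1 higher, beside 3.76% and 6.42% of all genes tested, and without F1 it was 5 lower and 0 higher, beside 4.14% of all genes then tested that were lower. Ifitm3, a restriction factor abundant in these cells, was at 42.0 to 47.9 in CS and 31.6 to 54.1 in RA mice. At an unadjusted p under 0.05, 3 of 27 tested NRF2 and antioxidant genes were lower and 3 higher, beside 3.76% and 6.42% of all genes tested. Sod2, among the lower ones, is also on the NF-kB list. Gclc, which makes the rate-limiting subunit for glutathione, was at 1.02, 1.08, 0.850 and 0.843 in the CS mice and 0.520, 0.664, 0.695 and 0.643 in the RA mice (log2 difference 0.26, SE 0.08, adjusted p = 0.340). Hmox1, the inducible heme oxygenase, overlapped at 0.996 to 2.34 against 1.0 to 2.51.

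Transcripts of other cells were examined in the same monocytes with 12 marker lists. None of the summed levels passed the exact permutation test after adjustment over the lists (smallest adjusted p = 0.343). Erythroid markers summed to 4.61, 0.202, 24.7 and 13.6 in the CS mice and to at most 0.604 in the RA mice. The 3 globin genes tested were all higher in CS at an unadjusted p under 0.05, beside 6.42% of all genes tested. Hbb-bt and Hba-a2 were found in 8.94% and 8.35% of all monocytes, so neither met the 10% filter in both groups. They were tested only because 1 group held them more often, so the count cannot be weighed against that share. Neutrophil markers summed to 2.73 to 3.49 in CS and 3.46 to 15.9 in RA mice (exact permutation p = 0.0571, adjusted p = 0.343). With the counts of a mouse summed before scaling they were at 2.77 to 3.298 against 3.71 to 8.09, without overlap (exact permutation p = 0.0286, adjusted p = 0.171). Without the 70 monocytes that held a transcript of S100a8, S100a9 or Retnlg, 24 of them in F1, 18 of 26 NF-kB list genes were lower at an unadjusted p under 0.05, with a median of -0.45, beside 259 of all 7043 genes in that fit. Epithelial markers summed to 36.1 in C5 and 35.6 in D2 against 2.03 to 7.48 in the other 6 mice. B cell markers were at 0.244 to 0.420 in CS and 0.0911 to 0.206 in RA mice, without overlap. The 9 alveolar macrophage markers summed to 0.611 to 0.899 in CS and 0.170 to 0.885 in RA mice. Of these, Fabp1 and Siglecf were at 0 in all 8 mice, while Ear1 was found in 15.5% of the monocytes. The part of such transcripts in the gene differences was not tested. When the 398 monocytes that held at least 2 endothelial, epithelial, fibroblast or lymphocyte markers were left out, the NF-kB list had a median of -0.46, and the number of members lower at an unadjusted p under 0.05 was 13 in place of 17, beside 208 of all 6974 genes in that fit. Hopx, on the epithelial list, was found in 56.0% of the monocytes and Pecam1, on the endothelial list, in 32.6%. Whether the monocytes make these transcripts was not tested, so the 398 are not a count of cells with foreign transcripts.

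Cells also differed from each other within a mouse. After the mean of each mouse was taken out, the first component of the 1000 most variable genes held 7.66% of the variance and had a correlation of -0.72 with log depth over the 671 cells, with mitochondrial transcripts and Malat1 at one end and ribosomal and other abundant mRNAs at the other. The second component, with 4.88% of the variance and a correlation of -0.01 with log depth, set Thbs1, Ier3, Cd14, Kdm6b, Cxcl2 and Nfkbia against F13a1, Dock8, Grk5 and Pid1. The third, with 2.57%, set Cd74, H2-Aa and H2-Ab1 against Cxcl2, Nfkbia, Chil3, Nfkbiz, Nlrp3 and Tnf. These are descriptions over cells, which share libraries and are not replicates.

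Next, the same exposure was compared across cell types of the same lungs, where controls are shared because the mice are the same. In alveolar macrophages, 16 of 24 NF-kB list genes tested were lower and 1 higher in CS at an unadjusted p under 0.05 (4.9% of all genes tested were lower), with a median log2 difference of -0.54. In neutrophils it was 8 of 23 (4.47%), with a median of -0.20, and in non-classical monocytes 3 of 21 (2.83%), with a median of -0.12 over 7 mice, since F1 had too few cells. Tnf had log2 differences of -1.13 in classical monocytes, -1.12 in alveolar macrophages, -0.84 in neutrophils and -0.82 in non-classical monocytes. Il1b had log2 differences of -1.20 in classical monocytes, -0.44 in alveolar macrophages, -0.07 in neutrophils and -0.29 in non-classical monocytes. On the 7 mice used for non-classical monocytes, the classical values were -0.97 for Il1b and -1.06 for Tnf.

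The difference of these effects was then tested within mice. Against non-classical monocytes 0 of 7417 genes were called (0%), with 227 genes higher and 219 lower at an unadjusted p under 0.05. Casp4 had the smallest p, with levels of 1.09, 1.24, 0.969 and 1.19 in the non-classical cells of C2, C5, D2 and D5 and 0.664, 0.840 and 0.938 in those of F3, M1 and M3, so that all CS mice lay above all RA mice here and below them in classical cells (difference of effects -0.70, SE 0.13, adjusted p = 0.794). Il1b had a difference of effects of -0.68 (SE 0.18, unadjusted p = 0.00185, adjusted p = 0.819). Against neutrophils, 0 of 7171 genes were called (0%), with 221 higher and 241 lower at an unadjusted p under 0.05. Il1b, which neutrophils held at 73.3 to 150 in all 8 mice, had a difference of -1.12 (SE 0.39, adjusted p = 0.705), and Cd14 one of 0.04 (SE 0.24).

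Against alveolar macrophages limma called 1 of 8335 genes (0.012%). Egr1, an immediate early transcription factor, was at 0.740, 1.30, 0.461 and 0.368 in the classical monocytes of C2, C5, D2 and D5 and 0.274, 0.284, 0.593 and 0.375 in those of F1, F3, M1 and M3. In alveolar macrophages of the same mice it was at 3.42, 2.87, 3.55 and 1.83 against 12, 10.8, 10.5 and 13.5. The macrophage levels were apart between the groups and the monocyte levels overlapped (difference of effects 2.0, SE 0.23, adjusted p = 0.00634), and the call was lost without C2 or without C5, at adjusted p = 0.0545 and 0.0800. Tnf and Nfkbia had differences of -0.01 (SE 0.21) and 0.12 (SE 0.15) between these types.

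**Figure D4:**
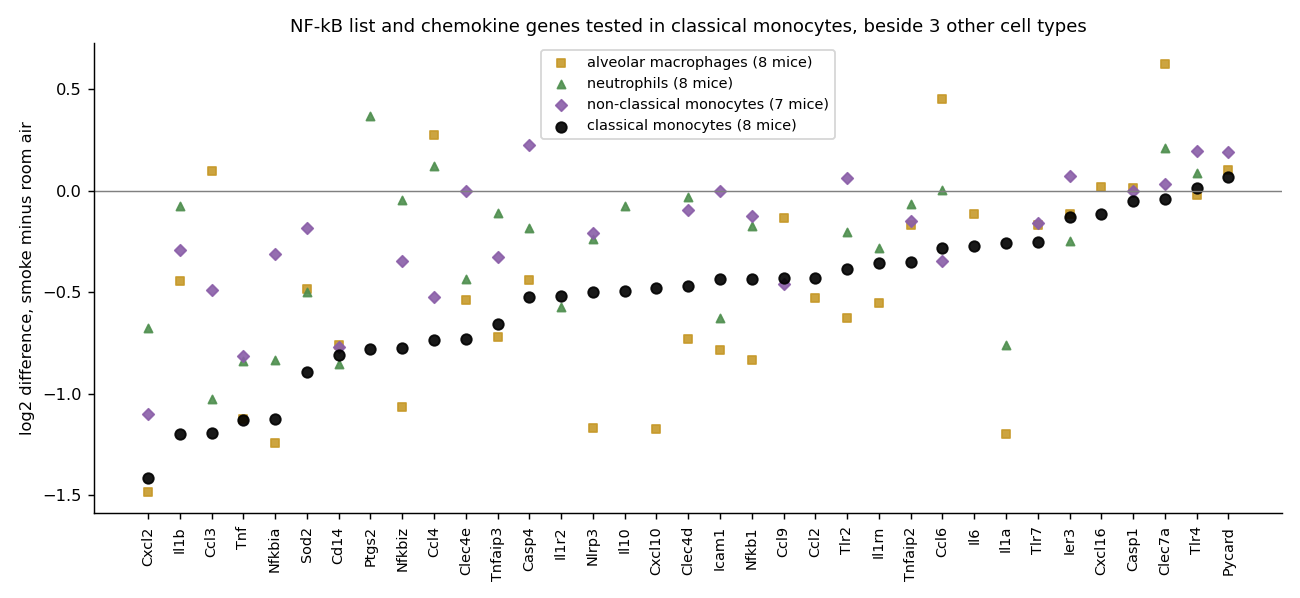
Log2 difference (smoke minus room air, y axis) of the 35 NF-kB list and chemokine genes tested in classical monocytes (black circles, x axis ordered by them), beside alveolar macrophages (squares), neutrophils (triangles) and non-classical monocytes (diamonds, 7 mice). Cd14 lies close together in all 4 types, from -0.85 to -0.76, while Il1b runs from -1.20 in classical monocytes to -0.07 in neutrophils.

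Interstitial macrophages, which monocytes can replenish, reached 20 cells only in F1, so the planned test at 20 cells could not be fitted. With 10 cells and 5 mice (C5, D2, F1, F3 and M1), 0 of 8859 genes were called (0%; smallest adjusted p = 0.0586), with 212 genes higher and 305 lower at an unadjusted p under 0.05. Tnip1, a partner of A20 that restrains NF-kB, was at 0.554 and 0.648 in the classical monocytes of C5 and D2 against 2.37, 1.53 and 0.939 in those of F1, F3 and M1, and at 0.946 and 1.85 against 0.631, 0.461 and 0.109 in the interstitial macrophages (difference of effects -1.44, SE 0.19, adjusted p = 0.0797). The order of the groups was opposite in the 2 cell types, without a call.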

How the data were processed

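Single-cell RNA-seq (10x Genomics 3′ v3) was made from the lungs of 4 CS and 4 RA mice. The authors aligned reads with STAR 2.7.3a (STARsolo) to GRCm38.p6 and removed ambient RNA with SoupX, so the deposited values are estimated counts of transcripts, not whole numbers. They stated filters of at least 1000 transcripts, under 5% mitochondrial and over 7.5% unspliced transcripts. The mitochondrial percent of each cell was deposited by the authors in the cell table with their cell type labels. Removing ambient RNA can lower the values of abundant transcripts.

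Cells labelled cMono were scaled to 10,000 transcripts and averaged per mouse. The values are not whole, so no count model was used. limma 3.58.1 (R 4.3.3; trend, Benjamini-Hochberg adjustment, threshold 0.05) was fitted on log2(level + 1) for the genes found in 10% of cells of either group, with mice as replicates. All adjusted p-values of genes are from limma. Differences between cell types were fitted on the difference within each mouse with at least 20 cells of both types. Shares and summed markers were tested by exact permutation of the 8 mice, which has 70 assignments. The code was tested on simulated data. Summed depth per mouse was 356743 to 920131 UMIs.

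Named genes were the defining markers, the 10 genes with the smallest p in each direction where none was called, members of each list by level or call, and up to 5 genes of each test between types. Other list members were named after their values were seen. Members and lists were chosen with earlier results of these data known. The lane, read from the sample descriptions, pairs 1 CS with 1 RA mouse. Deviations from group means correlated at -0.164, 0.0872, -0.0892 and 0.0363 within the 4 lanes, and the fit with lane as a block called 0 genes. Alternatives were another pseudocount, gene filter, scaling, cell selection, sex term, rank test over cells and each mouse left out. The comparisons with alveolar macrophages and neutrophils and the removal of cells with neutrophil transcripts were added after seeing the data. Doublets were not called here, and the 1025 cells the authors labelled multiplets were left out of shares. Positions are from GENCODE M21 on GRCm38, and promoters from RefSeq.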

Additional observations from a re-analysis of the deposited data

Results flagged for a closer look

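For 104 groups of 4 mice the gap of the highest or lowest mouse to its neighbour was compared with the range of its group. Chance marks about 1 in 20 groups, and 11 stood out, 8 of them through F1. F1 had the highest RA level of Il1b (26.1), Cxcl2 (68.7), C5ar1 (3.94), Clec4e (7.84) and Chil3 (237), the lowest of Gm6210 (0.386), and the highest summed neutrophil (15.9) and platelet markers (0.447). D5 had the lowest Stpg4 level of the CS mice (0.240), C5 the highest Rpl35a-ps5 level (0.281) and D2 the highest summed T and NK cell markers (0.230). The CS effect on Egr1 differed between classical monocytes and alveolar macrophages by 2.0 on the log2 scale, with an adjusted p of 0.00634 in limma.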

How the results depend on the processing

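With all 8 mice and the settings above, 0 genes were called in the comparison of CS with RA. It was 1 gene (Tnf) with 51 cells per mouse, 3 genes with labelled sex as a term (Fam20c, Arl5c and Tnf, where the label goes against sex-linked transcripts in all 4 CS mice), and 177 in the rank test over cells. Leaving out 1 mouse gave 0 to 2 genes, 2 of them (Il1b and Gm6210) without F1. The fit with lane as a replicate block called 0 genes and changed no call of the comparisons between cell types. The log2 difference of Lyz2 was 0.0838 with quantile normalization. With 1 mouse left out, that of F13a1 ran from -0.20 to 0.0867 and that of Chil3 from -1.65 to 0.0677, both above 0 without F1, and F13a1 also without C5 (0.01). The share of immune cells differed by -0.711 to 1.06 percentage points. Summed T and NK cell markers differed by -0.0302 with summed counts. Against alveolar macrophages 2 genes were called with a pseudocount of 0.1, and 0 to 2 with 1 mouse left out. The cause was not tested. The alternatives of the interstitial macrophage test at 20 cells were not run, as it could not be fitted. Of the values of 35 genes under 20 alternatives, 683 of 693 kept their direction and their side of the threshold. None of these genes was called in the main fit, many were picked for a small p, and the alternatives reuse the same mice. That count is therefore no separate support. The number of NF-kB list genes lower at an unadjusted p under 0.05 ran from 13 to 20, with 27 tested in the main fit. The count over all genes also moved between fits, from 263 of 6998 in the main fit to 292 of 7055 without F1. The range was not compared with the share of all genes in each fit. Each mouse gave only 51 to 129 monocytes, and how far this limits genes at low levels was not tested.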

Other observations

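All 10 tested mitochondrially encoded genes had log2 differences above 0, where 4098 of all 6998 genes tested did. Their median was 0.33, and 3 were higher at an unadjusted p under 0.05, beside 6.42% of all genes tested. Their levels summed to 35.7 to 67.6 in CS and 22.8 to 50.6 in RA mice and overlapped. The median mitochondrial percent per monocyte was 0.617 ± 0.199 under CS and 0.454 ± 0.0757 under RA (SD over 4 mice; exact permutation p = 0.257), median depth was 6905 against 7994 UMIs, and the component of cells led by these genes had a correlation of -0.72 with log depth. The part of depth and RNA quality in this result was not tested. Of 73 nuclear genes of oxidative phosphorylation 50 were above 0, with a median of 0.04 beside 0.02 over all genes, and 1 was higher at an unadjusted p under 0.05. Their levels summed to 129.7 to 134 in CS and 119 to 128 in RA mice, without overlap. Of 75 ribosomal protein genes 57 were above 0 (median 0.06), and 3 were higher at an unadjusted p under 0.05, beside 6.42% of all genes tested.

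Stress genes, which cell isolation can induce, had more members below 0 than above it in each of the 3 lists described here. Of 27 cytosolic chaperones 21 had log2 differences below 0, where 2900 of all 6998 genes tested did, and 2 were lower and 0 higher at an unadjusted p under 0.05 (median -0.09). Without F1 it was 6 lower and 0 higher, beside 4.14% of all genes then tested. Of 21 tested AP-1 and immediate-early genes 3 were lower and 1 higher at an unadjusted p under 0.05, beside 3.76% and 6.42% of all genes tested (median -0.03), and 5 lower and 0 higher without F1 (median -0.13). Their sums were 70.9 to 112 in CS and 84.2 to 114 in RA mice. Of 12 glucocorticoid target genes 9 were below 0 and 4 were lower with 0 higher, beside the same shares of all genes tested (median -0.11), and without F1 the counts were also 4 and 0. The part of cell isolation in the differences of the NF-kB list was not tested. Of 24 cathepsin and lysosome genes 1 was lower and 1 higher at an unadjusted p under 0.05, beside 3.76% and 6.42% of all genes tested.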
